A study of Schizosaccharomyces pombe with 32 samples.

Results

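The comparison set the 6 arrays with P-factor at 1, 2 and 3 h after nitrogen removal against the 6 arrays without P-factor at the same hours, 12 of the 32 arrays of the series. The P-factor arrays carried the fission yeast (Schizosaccharomyces pombe) strain labelled CRL672, starved in a medium with 0.5 µg per ml of synthetic P-factor. The arrays without P-factor carried the strain labelled L972, starved in the same medium with no peptide. In both conditions cells grew in the rich medium YES at the same temperature and density, were washed into the minimal medium EMM2-N, which lacks nitrogen, and gave polyA RNA at each hour from 1 to 8 h. Each spotted array compared starved cells (Cy5) with growing cells of the same strain (Cy3), so a positive log2 ratio means more transcript after starvation, with each array centred on its median. A difference between conditions is therefore a difference of 2 such ratios. Strain and pheromone changed together, and a difference in starved cells and one in the growing cells of the strains cannot be told apart. The labels give no genotype of either strain, and each culture began from a single colony.

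P-factor is the peptide pheromone of P cells. M cells sense it with the receptor Mam2, which acts through the G protein subunit Gpa1 and a kinase cascade ending in the MAP kinase Spk1. The transcription factor Ste11 drives the mating genes, among them those of the pheromones, receptors and fusion proteins, and it is itself raised by nitrogen starvation and held down by nutrient signalling. In cells that lack nitrogen, ribosome production falls while autophagy, proteases and nitrogen uptake take over.

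By their array numbers the arrays form 4 series, 1 for each condition and repeat, named here replicate 1 and replicate 2. The labels do not number the repeats, so the replicate numbers are names only. The replicate 2 series of both conditions have adjoining array numbers. On the 12 arrays, same-hour arrays correlated over genes at 0.865, 0.896 and 0.927 between the P-factor series and at 0.894, 0.901 and 0.84 between the series without P-factor. They correlated at 0.923, 0.943 and 0.921 between the adjoining series of different conditions. Genes are not independent replicates, so these values are a description.

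By counts of genes at least 2-fold apart, the series without P-factor that is named replicate 1 stood apart from the other 3. By correlation it did so at 3 h but not at 1 h. At 1 h its correlations with the other series were 0.894, 0.888 and 0.874, and those of P-factor replicate 1 were 0.865, 0.888 and 0.875. At 2 h its correlations were 0.901, 0.882 and 0.882, against 0.896 to 0.943 in the pairs without it. At 3 h they were 0.84, 0.874 and 0.843, against 0.897 to 0.927. Between the means over 1 to 3 h, 165 genes (3.43%) differed at least 2-fold between the repeats with P-factor, and 319 genes (6.66%) between the repeats without it. Between the adjoining series of the 2 conditions the number was 80 (1.66%). On 75 genes the mean of replicate 1 without P-factor lay at least 1 on the log2 scale above or below each of the other 3 means, against 29 genes for P-factor replicate 1, 22 for P-factor replicate 2 and 14 for replicate 2 without P-factor.

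Some of these genes had ratios that no other series approached. The genes in the next sentences were chosen after their values were seen. The oxygenase gene isp7 (SPAC25B8.13C) lay at 0.68, 1.12 and -0.02 and at 0.63, 0.81 and 0.34 at 1, 2 and 3 h in the P-factor series, against 5.46, 6.34 and 5.86 in replicate 1 and 0.13, 0.94 and 1.68 in replicate 2 without P-factor. The D-amino acid oxidase gene dao1 (SPCC1450.07C) lay at 4.59, 4.89 and 4.24 and at 5.47, 4.20 and 4.19 with P-factor, against 0.28, -0.05 and 0.16 in replicate 1 and 4.73, 4.49 and 4.25 in replicate 2 without it. In both genes 1 series without P-factor lay close to the P-factor arrays and the other did not, so the averaged differences of -2.81 ± 1.03 and 2.29 ± 0.88 (SE) rest on a single series. The same held for the small heat shock gene hsp16, the chaperone gene hsp90 and the ribosomal protein gene rpl1202, whose differences were -1.05, -1.11 and -0.88 over both repeats. In the adjoining series these 3 differences were 0.38, -0.34 and 0.38.

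**Figure D1:**
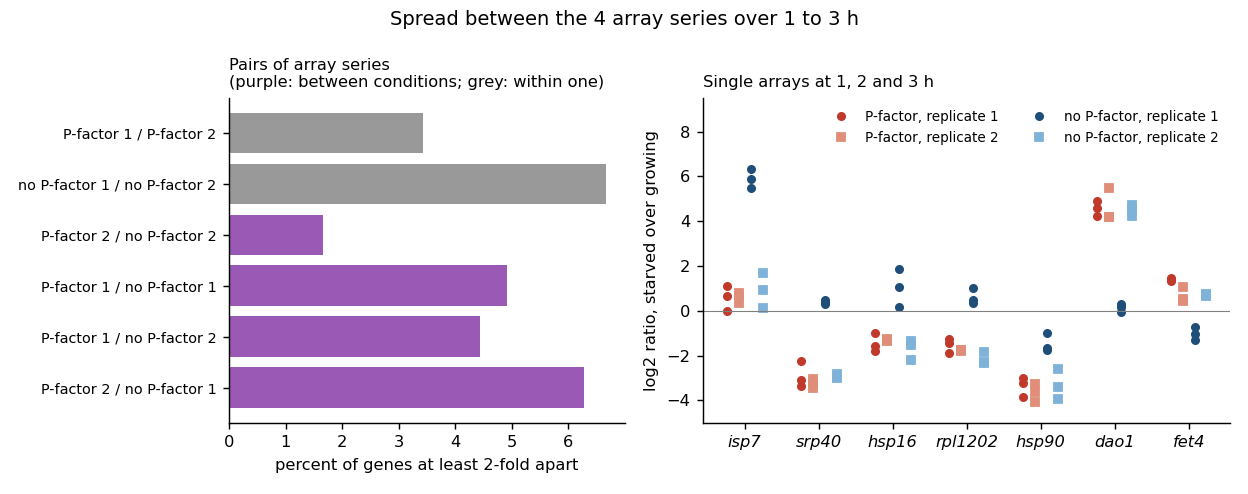
Left, percent of genes whose means over 1 to 3 h differ at least 2-fold, for the 6 pairs of array series; right, log2 ratios of starved over growing cells on single arrays for 7 genes chosen after their values were seen. The pair with the lowest share (1.66%) crosses the conditions, and replicate 1 without P-factor lies apart from the other series in each of the 7 genes.

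The main question was which transcripts differed between the conditions in the first 3 hours. A linear model with a term for the hour and one for the condition was fitted over 4813 genes with limma, with the array series as a random block and Benjamini-Hochberg adjustment at 0.05. It called 3 genes (0.0623%), 2 of them higher with P-factor (0.0416%) and 1 lower (0.0208%). At an unadjusted p under 0.05 there were 267 genes (5.55%). The median standard error of a difference was 0.255. Its 95% confidence interval, not adjusted for the number of genes, typically reached 0.547 to either side (median over genes). Smaller differences were not resolved for a typical gene. After adjustment the smallest difference called was 2.09, so a gene that was not called may still differ by more than 0.547. The 5th and 95th percentiles of all differences were -0.527 and 0.479. By estimate alone, 28 genes were at least 1 higher and 31 at least 1 lower.

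The count depended on the arrays used. It was 2 without either P-factor series, 6 without replicate 1 and 101 without replicate 2 of the arrays without P-factor, and 14 in the adjoining series alone. Each of these fits kept nrg1 and rlp24. In each of them at least 1 condition was left with a single series, whose own deviation cannot be told apart from the condition. The fit of the adjoining series also had no block, so it treated the hours of a series as separate observations. Fitting all 32 arrays, which estimates the spread from more arrays, called 9 genes (0.187%) for the same difference at 1 to 3 h, 4 higher (0.0831%) and 5 lower (0.104%), which are the 3 above and 6 more.

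The gene nrg1 (SPBPB2B2.01, near the right end of chromosome II) had the largest difference. Its log2 ratio was 0.26, 1.02 and 0.53 at 1, 2 and 3 h in P-factor replicate 1 and 0.07, 0.32 and 0.38 in P-factor replicate 2. Without P-factor it was 4.44, 4.64 and 4.24 in replicate 1 and 4.04, 4.32 and 4.49 in replicate 2. In CRL672 with P-factor the ratio thus stayed near 0 to 1, while starved cells of L972 held far more nrg1 transcript than their own growing cells at every hour, and the groups did not overlap. The difference was -3.93 ± 0.23 (SE, n = 6 and 6 arrays, limma adjusted p = 5.24e-07).

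The ribosome assembly gene rlp24 (SPAC22E12.13C, on chromosome I), whose budding yeast counterpart is loaded onto the precursor of the large ribosomal subunit, differed in the opposite direction. Its ratio was 0.00, 0.68 and 0.09 and then 0.16, 0.39 and 0.09 in the 2 P-factor series. Without P-factor it was -3.56, -3.37 and -3.20 and then -3.56, -3.32 and -2.62. Its ratio thus lay between 0.00 and 0.68 on the 6 P-factor arrays and between -3.56 and -2.62 on all 6 without P-factor. The difference was 3.50 ± 0.27 (limma adjusted p = 1.06e-05).

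The gene pan5 (SPBPB2B2.09C, near the right end of chromosome II) is named for 2-dehydropantoate reductase, an enzyme of pantothenate synthesis. Its ratio was 0.13, 0.73 and 0.14 and then 0.35, 0.13 and 0.14 with P-factor. Without P-factor it was -2.00, -1.62 and -1.24 and then -2.09, -2.12 and -1.87. Again every P-factor array lay above every array without it, and the difference was 2.09 ± 0.27 (limma adjusted p = 0.00384). This call was lost in 4 of 17 alternative settings, among them the fits without either P-factor series. The 6 arrays of each condition come from 2 series, and with the means of the series, 2 against 2, the difference was 2.09 with a limma adjusted p of 0.143. In that fit nrg1 and rlp24 were called, with a limma adjusted p of 0.00444 each.

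All 3 genes shared a feature on the P-factor arrays. Their ratios there lay near the median of the 320 probes without a single gene on the same array, a set that takes in unlisted spots. That median was 0.144, 0.683 and 0.211 at 1, 2 and 3 h in P-factor replicate 1 and 0.122, 0.291 and 0.23 in P-factor replicate 2. On the 6 P-factor arrays the largest distance from it was 0.34 for nrg1, 0.23 for pan5 and 0.15 for rlp24. On the 6 arrays without P-factor the distance was 3.95 to 4.68 for nrg1, -3.70 to -2.43 for rlp24 and -2.50 to -1.49 for pan5. The share of all genes that lie as close to this median was not counted, so it is not known whether the closeness sets the 3 genes apart. The probe set is also no uniform background. Its probe means over 1 to 3 h ran from -3.55 to 2.23 in P-factor replicate 1 and from -3.28 to 2.27 in P-factor replicate 2. The part of this closeness in the 3 differences was not tested.

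**Figure D2:**
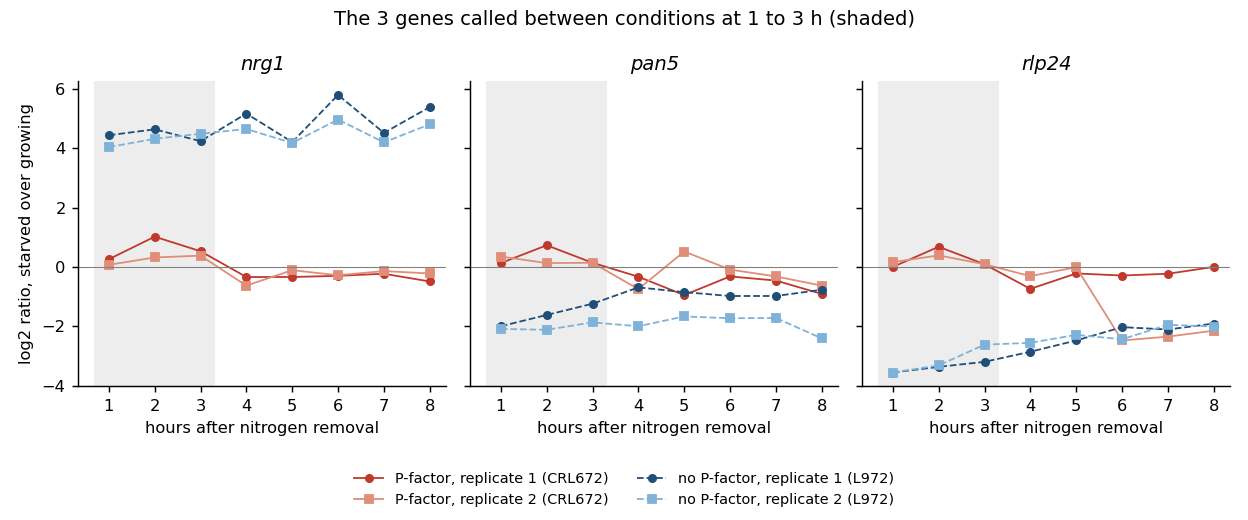
Log2 ratios of starved over growing cells of nrg1, pan5 and rlp24 on each array from 1 to 8 h, with the P-factor series in red and the series without P-factor in blue and the hours compared shaded. With P-factor all 3 lie near 0 at 1 to 3 h, while without it nrg1 lies above 4 and the others between -3.56 and -1.24.

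The later hours, from the same cultures' series, showed what became of these genes. With P-factor nrg1 stayed within 0.34 of the median of the probes without a single gene on all 16 arrays from 1 to 8 h, and at 4 to 8 h its difference was -5.10 ± 0.20. The pan5 difference was 0.96 ± 0.32 at 4 to 8 h (limma adjusted p = 0.0595). In rlp24 the P-factor series parted. Replicate 1 lay at -0.29, -0.23 and 0.00 at 6, 7 and 8 h and replicate 2 at -2.48, -2.35 and -2.15, against -2.03, -2.11 and -1.91 and then -2.44, -1.95 and -2.01 in the series without P-factor. From 6 h on, 1 P-factor series was thus at the level of the arrays without P-factor and the other was not.

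Because nrg1 and pan5 lie close together, the genes around them were described in chromosomal order, taken from the RefSeq assembly ASM294v3 for gene order alone. The array measured 25 genes to the right of gmh6 (SPBC1289.13C), toward the right end of chromosome II. The region was chosen after its values were seen, so no test is given for it. In the P-factor series the means of these 25 genes over 1 to 3 h were nearly flat, from 0.14 to 1.49 in replicate 1 and from 0.08 to 1.15 in replicate 2. Their standard deviation over genes was 0.31 and 0.27. Without P-factor the means ran from -3.33 to 5.19 in replicate 1 and from -2.03 to 4.29 in replicate 2, with standard deviations of 1.70 and 1.42. Over all genes the standard deviation was 1.22 and 1.26 with P-factor and 1.21 and 1.30 without it, so the flatness on the P-factor arrays was not seen across the genome.

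Within the region the differences went both ways, with 13 genes below 0 and 12 above. By estimate, 8 were at least 1 lower and 2 at least 1 higher with P-factor. In 6 of the 25 genes all P-factor arrays lay below all others and in 1 all lay above, where 0.873% and 0.831% of all genes did so. The median of the 25 genes lay 0.12 to 0.32 above the median of the probes without a single gene on the 6 P-factor arrays, and 0.26 to 1.25 above it on the 6 arrays without P-factor.

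Several neighbours showed the pattern in single arrays. SPBC8E4.03 lay at 0.28, 0.98 and 0.28 and at 0.10, 0.36 and 0.49 with P-factor, against 3.48, 2.63 and 1.40 and 4.89, 3.93 and 3.18 without it. Its difference was -2.84 ± 0.56, which the fit of all 32 arrays called and the fit of the 12 arrays did not (limma adjusted p = 0.127 on the 12). SPBPB2B2.05 lay at 0.15, 0.38 and 0.36 and at 0.49, 0.47 and 0.73 with P-factor, against 4.08, 5.15 and 6.35 and 2.05, 2.42 and 1.96 without it, a difference of -3.24 ± 0.72 that only the larger of these 2 fits called. The groups did not overlap in either gene, but the repeats without P-factor were far apart from each other.

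The 6 genes of the region named in the next sentences had series means between 0.08 and 0.81 with P-factor. The galactose enzyme gene gal7 had means of 0.14 and 0.08 with P-factor and of 1.22 and 1.16 without it, a difference of -1.08 ± 0.32. Its neighbours gal10 and gal1, of the same pathway, had differences of 0.33 ± 0.28 and 0.30 ± 0.59, with repeats of gal1 without P-factor at 1.36 and -0.91. The flocculin family gene pfl5 had a difference of -1.06 ± 0.35, and the noncoding RNA gene prt2 one of -1.39 ± 0.48. The noncoding RNA nc-pho1, next to the acid phosphatase gene pho1, had a difference of 2.20 ± 0.73 that came from replicate 1 without P-factor alone (means of 0.57 and 0.62 with P-factor, against -3.33 in replicate 1 and 0.13 in replicate 2 without it). None of these passed the test.

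The boundary gene gmh6, a member of a galactosyltransferase family, did not share the flat pattern. It lay at -1.48, -0.83 and -1.04 and at -1.24, -0.81 and -1.14 with P-factor, against 0.14, 0.15 and -0.17 and 0.70, 0.36 and 0.00 without it. All P-factor arrays were lower, with a difference of -1.28 ± 0.26 (limma adjusted p = 0.127 on 12 arrays, called on 32). The 6 measured genes to its left, from rpc40 to usp109, had differences between -0.33 and 0.13. At 4 to 8 h the differences were -4.53 for SPBPB2B2.05, -2.86 for prt2, -2.43 for SPBC8E4.03 and -1.34 for gmh6.

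**Figure D3:**
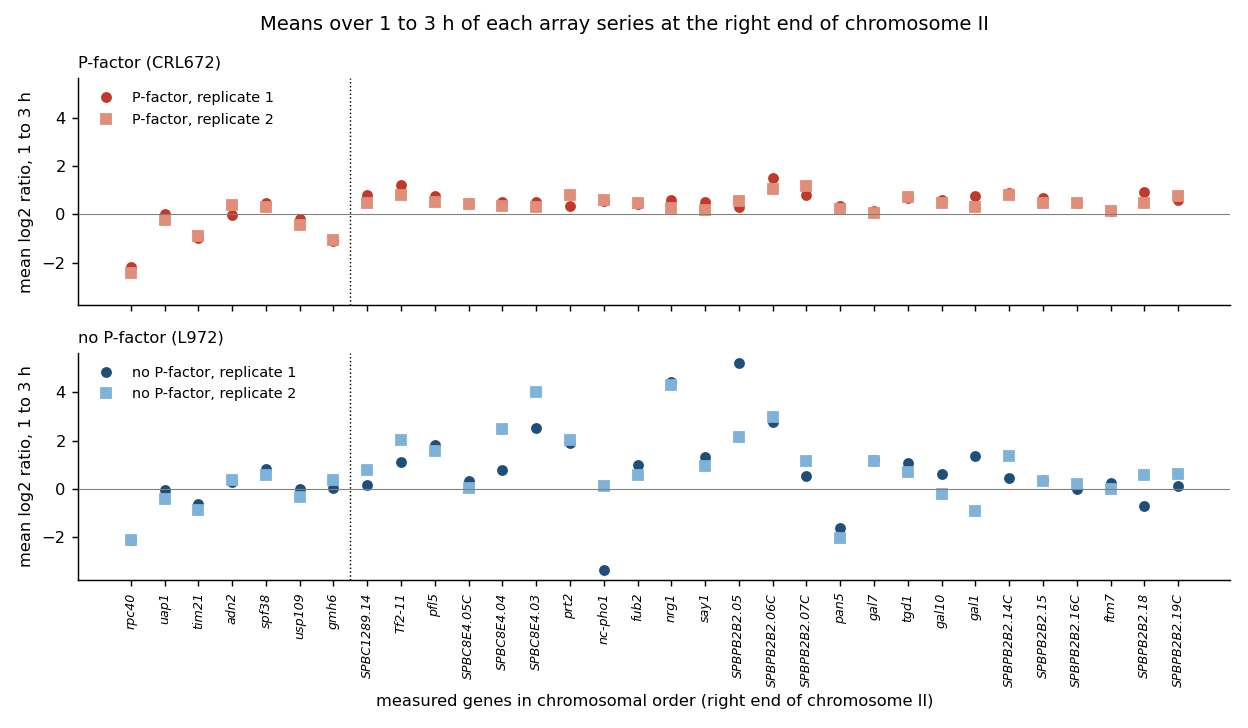
Mean log2 ratio of starved over growing cells at 1 to 3 h for measured genes at the right end of chromosome II, in chromosomal order, with the P-factor series above and the series without P-factor below. Right of the dotted line, after gmh6, the P-factor means lie between 0.08 and 1.49, and those without P-factor between -3.33 and 5.19.

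Gene groups came next, each described by how many of its members passed the test and by its median difference, beside a median of -0.0377 over all 4813 genes. In 39 of 40 lists no gene was called. With 3 of 4813 genes called (0.0623%), most lists would hold no call, so the lack of one says little about a list. The exception was the list of 98 genes near the ends of chromosomes I and II, where nrg1 was lower and pan5 higher. Counts of list members above 0 are to be read beside the share over all genes, which was 44.3%.

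Of the 40 lists, the median furthest from 0 on the centred values was that of the 116 cytosolic ribosomal protein genes, whose ratios were below 0 in both conditions. On the 12 arrays none was called (lowest limma adjusted p = 0.127), but 40 (34.5%) had an unadjusted p under 0.05, where 5.55% of all genes did. The median difference was 0.447, and 114 of the 116 estimates were above 0, against 44.3% of all genes. In 24 genes (20.7%) all 6 P-factor arrays lay above all 6 arrays without it, against 0.831% of all genes. Genes of the group share their regulation, so they do not count as separate observations.

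The medians of the group on single arrays show the size of this shift. They were -1.62, -1.63 and -2.17 at 1, 2 and 3 h in P-factor replicate 1 and -2.18, -2.24 and -2.12 in P-factor replicate 2. Without P-factor they were -2.27, -2.49 and -2.57 in replicate 1 and -2.58, -2.66 and -2.35 in replicate 2. Every P-factor median lay above every median without P-factor, although the closest of them, -2.24 and -2.27, nearly met. Between the adjoining series alone the median difference was 0.329, with 111 of 116 genes above 0. With the values as deposited, with arrays scaled to one spread and after quantile normalization the median was 0.507, 0.398 and 0.403. After quantile normalization the 7 genes specific to M cells had a median further from 0, at 0.461. The median difference was 0.549 at 1 h, 0.582 at 2 h and 0.201 at 3 h, and it was -0.231 at 4 to 8 h.

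Genes for the large and the small subunit had medians of 0.48 over 66 rpl genes and 0.45 over 41 rps genes. The largest difference was that of rps2201, at -1.39, -1.30 and -2.03 and then -2.03, -1.86 and -1.81 with P-factor, against -2.79, -2.86 and -2.97 and then -3.21, -3.14 and -2.93 without it. The groups did not overlap, and the difference was 1.25 ± 0.25 (95% confidence interval 0.71 to 1.78). Its paralog rps2202 had a difference of 1.22 ± 0.24, and probes for such near-identical copies can read each other's transcripts. The fit of all 32 arrays called rps2202 (limma adjusted p = 0.036) and rps1401 (limma adjusted p = 0.0468), and quantile normalization of the 12 arrays called rps2202. The difference of rps1401 was 1.17 ± 0.31, that of rps20 0.96 ± 0.29 and those of rpl44 and rpl3002 0.94 each. Only rpl1202 and rpp202 lay below 0, and in rpl1202 replicate 1 without P-factor read 1.01, 0.36 and 0.47 while the other series lay between -2.35 and -1.25.

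**Figure D4:**
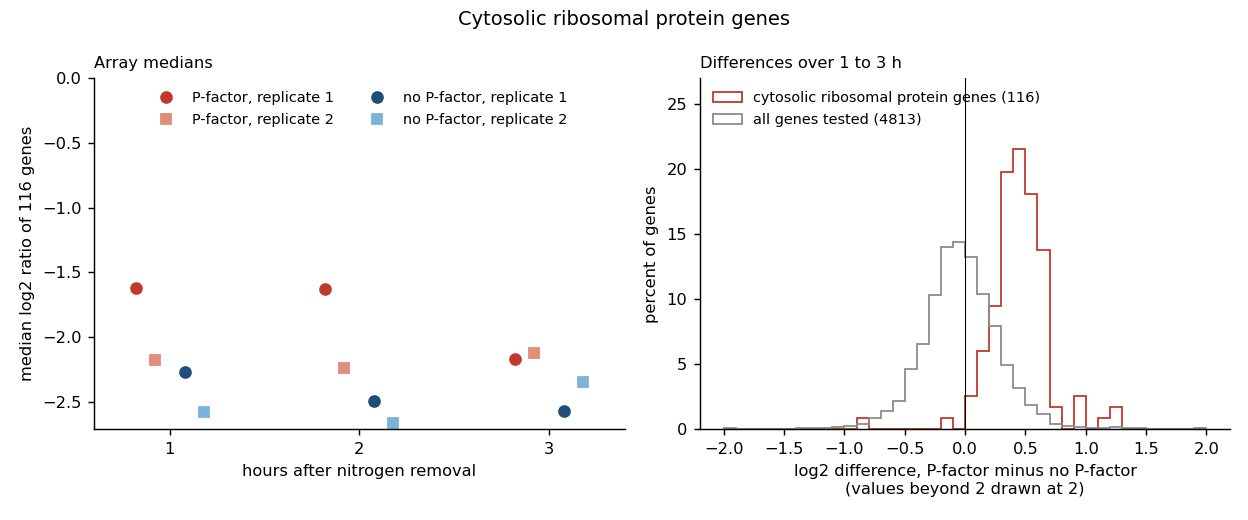
Left, median log2 ratio of starved over growing cells over the 116 cytosolic ribosomal protein genes on each array; right, the share of genes by their difference between P-factor and no P-factor over 1 to 3 h, for these genes and for all 4813. The 6 P-factor medians lie between -2.24 and -1.62 and the others between -2.66 and -2.27, and 114 of the 116 differences are above 0.

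The estimates for genes that build ribosomes mostly lay below 0. Of 68 ribosome assembly and rRNA processing genes, 19 had differences above 0, with a median of -0.216, and none was called. The list does not hold rlp24, which was called higher. The assembly chaperone gene rrb1 lay at -4.16, -4.33 and -4.25 and then -4.39, -4.39 and -3.97 with P-factor, against -3.69, -3.00 and -3.33 and then -3.77, -3.54 and -3.37 without it, a difference of -0.80 ± 0.23. The processing genes rrp12 and bms1 had -0.83 ± 0.30 and -0.77 ± 0.25. Translation factor genes had a median of -0.134, with 12 of 37 above 0, and mitochondrial ribosomal protein genes one of 0.00983, with 25 of 46 above 0.

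Mating genes were the group in which a response to the pheromone would be looked for. None of the 18 genes of pheromone signalling was called, and their median difference was -0.0545. None of the 7 measured genes specific to M cells was called either, with a median of 0.347. Of all genes 0.0623% were called, so the lack of calls in lists of this size does not answer whether they responded. In bulk RNA, more cells that express a gene and more RNA per cell cannot be told apart.

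The receptor gene mam2 (SPAC11H11.04) had the largest estimate of both lists. It lay at 2.97, 3.12 and 4.29 in P-factor replicate 1 and at 0.47, 0.61 and 3.13 in P-factor replicate 2. Without P-factor it lay at -0.08, 0.15 and 2.94 in replicate 1 and at 0.13, 0.09 and 2.19 in replicate 2. The gene was thus above 2 on every array at 3 h, and at 1 and 2 h it was high in P-factor replicate 1 alone. The difference was 1.53 ± 0.52 (95% confidence interval 0.42 to 2.64, limma adjusted p = 0.784). It was 2.46 between the replicate 1 series and 0.60 between the adjoining series.

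The gene mfm1 (SPAPB8E5.05), for a precursor of the pheromone M-factor, had values like those of mam2. It lay at 3.66, 4.65 and 4.10 in P-factor replicate 1, and at 0.75 at 1 h and 1.62 at 3 h in P-factor replicate 2, where the 2 h value is missing and was left out of the fit. Without P-factor it lay at 0.38, 0.58 and 3.72 and at 0.23, 0.86 and 1.79. In mam2 and mfm1, both values of P-factor replicate 1 at 1 and 2 h lay at least 1 above every measured value of the other series at either of these hours. Across 4804 genes these were the only 2 to do so in that series. This rule copies the pattern just described, so that both genes meet it supports nothing. With each hour compared on its own, mei2 met it too, and other genes were not counted that way. By the rule over both hours, 17 genes did so in replicate 1 without P-factor, among them isp7, srp40 and heat shock genes. The number was 6 in P-factor replicate 2 and 1 in replicate 2 without P-factor. The difference of mfm1 was 1.49 ± 0.88 (95% confidence interval -0.41 to 3.39).

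The gene mei2 (SPAC27D7.03C), for the RNA-binding protein that starts meiosis, lay at 2.61, 3.13 and 4.82 and at 0.84, 0.64 and 5.09 with P-factor, against 0.17, 1.50 and 3.04 and 1.33, 2.10 and 4.32 without it. All 4 series were high by 3 h, and the difference was 0.78 ± 0.61. The regulator gene rgs1, whose product dampens the G protein signal, had a difference of 0.67 ± 0.69, with 1 missing value. The M-factor gene mfm3 had 0.66 ± 0.90, the M-factor transporter gene mam1 0.35 ± 0.38, the G protein gene gpa1 0.48 ± 0.58 and the MAP kinase gene spk1 0.19 ± 0.48.

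The transcription factor gene ste11 (SPBC32C12.02) lay at -0.37, 0.57 and 1.28 and at -1.09, 0.37 and 1.20 with P-factor, against -0.69, 0.97 and 2.31 and -0.76, 0.82 and 1.76 without it. It increased over the 3 hours in each of the 4 series, and its difference was -0.41 ± 0.27 (95% confidence interval -0.99 to 0.17). The agglutinin gene mam3 was at 0.47 to 1.43 with P-factor and at 0.88 to 1.39 without it, a difference of -0.19 ± 0.25. The gene ste6, for the exchange factor of Ras, had -0.02 ± 0.21 and rep1, for an activator of early meiotic genes, 0.22 ± 0.31. The carboxypeptidase gene sxa2, whose product breaks down P-factor, had -0.18 ± 0.30, with all 12 values between -1.03 and 0.27.

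Markers were used to check the cells. Of 7 M-cell markers 6 were measured, and their median at 1 to 3 h was between 0.58 and 3.29 on the P-factor arrays and between 0.23 and 2.58 on the others. At 6 to 8 h it was between 7.29 and 7.91 with P-factor and between 3.91 and 5.82 without it. The members did not move alike. At these hours sxa2 lay at -0.47 to 0.02 with P-factor and at -0.07 to 0.66 without it. Its difference at 4 to 8 h was -0.85, while those of the other measured M-cell markers were above 0. Without P-factor mam3 lay at only 0.52 to 2.11 at 6 to 8 h. The 3 measured P-cell markers of 4 had medians between 0.20 and 0.53 with P-factor and between -0.08 and 0.54 without it at 1 to 3 h. At 6 to 8 h these medians were between 0.60 and 1.94 with P-factor and between 0.15 and 0.63 without it. The M-factor receptor gene map3 had a difference of -0.38 ± 0.29 at 1 to 3 h. Of 10 spore formation markers 9 were measured, with medians between 0.03 and 0.51 with P-factor and between -0.12 and 0.40 without it.

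**Figure D5:**
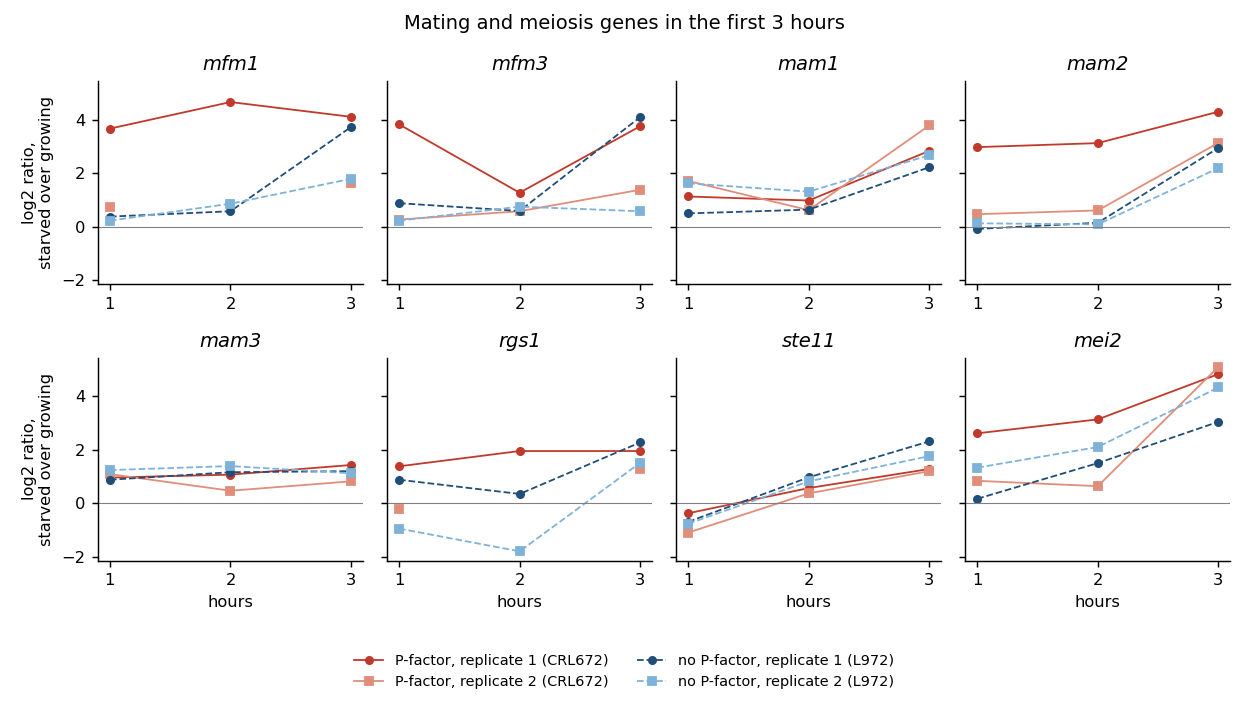
Log2 ratios of starved over growing cells of 8 mating and meiosis genes at 1, 2 and 3 h, with the P-factor series in red and the series without P-factor in blue; a missing array leaves a gap. P-factor replicate 1 lies apart at 1 and 2 h in mam2 and mfm1 (2.97 to 4.65), and ste11 increases over the 3 hours in all 4 series.

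Other genes of mating and meiosis were near the median of all genes. The 12 genes of agglutination and fusion had a median of 0.00692, the 19 of the meiotic axis and recombination one of 0.0802 and the 10 regulators of meiotic entry one of -0.06. The nuclear envelope gene kms1, which helps to link meiotic telomeres to the cytoskeleton, was the member of the bouquet list furthest from 0. It lay at 0.37, 0.40 and 0.28 and at 0.18, 0.24 and 0.26 with P-factor, against 0.94, 1.70 and 1.50 and 0.46, 1.12 and 1.16 without it. All 6 P-factor arrays were lower, with a difference of -0.86 ± 0.25 (95% confidence interval -1.39 to -0.33) that did not pass the test.

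No gene of the lists for nitrogen use and autophagy was called, where 0.0623% of all genes were. The protease gene isp6 (SPAC4A8.04) lay at 6.20 to 6.63 with P-factor and at 6.17 to 6.90 without it, a difference of -0.13 ± 0.21 (95% confidence interval -0.58 to 0.33). Of 13 permease genes for nitrogen sources 8 had differences above 0, where 44.3% of all genes did, with a median of 0.109. Of 12 genes of nitrogen assimilation 7 did, with a median of 0.179. Of 25 autophagy genes 4 did, with a median of -0.217, the lowest being atg101 at -0.74 ± 0.32. In atg101 the difference was 0.04 between the adjoining series and -1.53 between the replicate 1 series. The uracil breakdown gene urg1 lay at 6.17 to 9.70 with P-factor and at 5.85 to 8.46 without it, with 1 value missing at 3 h with P-factor.

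Stress and folding genes had medians below that of all genes, and the size of the difference depended on which pair of series was compared. Of the 26 core stress genes 6 lay above 0, against 44.3% of all genes, and their median was -0.383. It was -0.739 between the replicate 1 series and -0.197 between the adjoining series, with medians over series means of 1.13 and 1.98 with P-factor and of 1.83 and 2.33 without it. The 25 folding genes had a median of -0.284, with 3 above 0, and the medians were -0.464 and -0.145 between the same pairs. The disaggregase gene hsp104 had -0.80 ± 0.32 and the stress transcription factor gene atf1 -0.77 ± 0.30. The co-chaperone genes sti1 and aha1 had -0.86 ± 0.37 and -0.86 ± 0.41 over all series but 0.10 and 0.06 between the adjoining ones.

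Genes often mutated or used as markers in laboratory strains were examined because the strains differ. The uracil gene ura4 had a difference of -0.17 ± 0.27, the leucine gene leu1 0.27 ± 0.26 and the adenine gene ade6 -0.49 ± 0.30. Between the replicate 1 series and between the adjoining series, the sign reversed in leu1 (0.82 and -0.28) and ade6 (0.11 and -1.09). In ura4 it did not (-0.09 and -0.25). The adenylate cyclase gene cyr1 had -0.13 ± 0.44, and fbp1, the gluconeogenesis gene that cAMP signalling represses, had 0.08 ± 0.57. None was called. These are ratios against growing cells of the same strain, so a level that differs between the strains at all times would not appear in them.

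Each hour was also compared on its own. At 1 h 5 genes were called (0.104%), at 2 h 3 (0.0623%) and at 3 h 2 (0.0416%), with 187 (3.89%), 206 (4.28%) and 208 (4.32%) genes at an unadjusted p under 0.05. The differences at 1, 2 and 3 h were -4.08, -3.81 and -3.91 for nrg1 and 3.63, 3.88 and 3.00 for rlp24, both called at each hour, and 2.29, 2.30 and 1.69 for pan5, called at 1 and 2 h. At 1 h SPBC8E4.03 (-3.99 ± 0.49) and gmh6 (-1.78 ± 0.27) were called as well. The change of the difference between 1 and 3 h was called for 0 genes in limma, with 192 genes (3.99%) at an unadjusted p under 0.05. For nrg1 this change was 0.17 ± 0.33 and for pan5 -0.60 ± 0.34.

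The early hours stand in contrast to the later ones in the same fit of all 32 arrays. At 4 to 8 h 474 genes were called (9.85%), 329 higher (6.84%) and 145 lower (3.01%) with P-factor, against 9 at 1 to 3 h. These counts rest on unequal numbers of arrays, 20 and 12. The count at 4 to 8 h was 111 without P-factor replicate 1, 136 without P-factor replicate 2, 1383 without replicate 2 of the arrays without P-factor and 1553 with no block for the series. A test of the change itself, the difference at 4 to 8 h minus that at 1 to 3 h, called 1029 genes (21.4%), 623 toward higher (12.9%) and 406 toward lower (8.44%). Without centring the arrays, 439 genes were called toward higher and 569 toward lower. The count of changes was 482 without P-factor replicate 1, 285 without replicate 1 and 499 without replicate 2 of the arrays without P-factor, and 467 with no block. Fusion genes were called higher in 8 of 12 cases at 4 to 8 h, with a median of 1.49, and meiotic axis genes in 11 of 19, with a median of 1.02. Examples are mam3, with -0.19 at 1 to 3 h and 4.29 ± 0.37 at 4 to 8 h, the kinase gene shk2 with 0.47 and 4.94, and the fusion gene dni2 with 0.51 and 4.72.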

How the data were processed

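The deposited table holds 1 value for each of 5188 probes and 32 arrays. It was taken as log2 ratios, per the labels with starved cells in Cy5 over growing cells in Cy3. The authors' normalization, background steps and log base are not given in the sources used here, so folds assume base 2. Of the probes 4868 matched 1 gene, 22 several and 298 were not listed, and probes of a gene were averaged (4 of 4819 genes). Each array was centred on its median, which lay between -0.115 and 0.091 on the 12 arrays, where 0.477% of values were missing. The files hold no depth, so precision is set by how many arrays there are.

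Genes measured on at least 9 of 12 arrays were fitted with limma 3.58.1 in R 4.3.3, with hour and condition as terms and the array series as a random block (consensus correlation 0.44, 8 residual and 5.82 prior degrees of freedom). A mean for each group gave the single hours, and a fit of all 32 arrays gave 4 to 8 h and its change from 1 to 3 h. Tests were two-sided, with Benjamini-Hochberg adjustment over all genes of a contrast at 0.05. A ± gives the standard error. The labels say that experiments were repeated in each condition but do not say whether the cultures were separate, so p-values measure the spread between these arrays. The fit was tested on simulated data with normal noise and the same correlation within series for every gene. There, unchanged genes took a larger share of the calls than the threshold allows for the difference at 1 to 3 h. Adjusted p-values close to 0.05 are therefore less firm than they read. Genes with a stronger correlation within series than the rest were not simulated.

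The genes named by rule were 22 of mating, meiosis, starvation and strain markers (mfm2 and map2 were not measured) and the called genes with the same sign at each hour. Others were chosen after their values were seen, among them all members of the right end of chromosome II and the members shown for each list. The comparison, the gene lists and the rule were chosen with earlier results of these data known. No sequences are shown. Alternatives changed the centring, scaling, block (none, or the means of each series, 2 against 2), arrays, moderation and missing-value rule.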

Additional observations from a re-analysis of the deposited data

Results flagged for a closer look

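The difference between conditions at 4 to 8 h was tested against that at 1 to 3 h, and 16 of 29 genes named by rule or called on 12 or 32 arrays passed (limma, adjusted over all genes, 32 arrays), where 21.4% of all genes did. These changes of the difference, later minus early, come from the same 4 array series and share their arrays.

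Of the 29 genes 14 were genes of mating and meiosis, and 10 of these passed. The change was 4.48 ± 0.31 for mam3 (adjusted p = 2.24e-09), 1.93 ± 0.46 for rgs1, 1.92 ± 0.23 for rep1, 1.60 ± 0.35 for spk1 and 1.35 ± 0.41 for mam2. It was 1.11 ± 0.22 for ste6, 0.96 ± 0.25 for mam1, 0.94 ± 0.23 for map3 and 0.87 ± 0.16 for ste11. In ste11 the difference was -0.41 at 1 to 3 h and 0.46 ± 0.18 at 4 to 8 h. For sxa2 the change was -0.67 ± 0.17, with a difference of -0.85 ± 0.20 at 4 to 8 h.

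Of the 9 genes called at 1 to 3 h on 12 or 32 arrays, 6 passed. They were chosen for a large difference at 1 to 3 h, and the test subtracts that same estimate, so the choice itself favours a change toward 0 and the count supports nothing. The change was -1.16 ± 0.17 for nrg1 (adjusted p = 5.98e-05), whose difference became more negative. For pan5 it was -1.14 ± 0.27 and for rlp24 -2.12 ± 0.38, and both differences became smaller. In rlp24 this came with the split between the P-factor series at 6 to 8 h, and its part in the change was not tested. The change was -0.86 ± 0.19 for rps1401 and -1.14 ± 0.19 for rps2202, whose differences were 0.31 ± 0.23 and 0.08 ± 0.23 at 4 to 8 h. For SPBC1348.12 it was 0.85 ± 0.28, with a difference of -0.92 ± 0.33 at 4 to 8 h.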

How the results depend on the processing

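No paired analysis was possible because the labels do not number the repeats. The 3 calls at 1 to 3 h became 5 after quantile normalization, 9 with all 32 arrays and 16 with no block for the series. They became 14 without replicate 1 of both conditions, a fit that also had no block, and 2 to 101 without single series. A fit without a single series leaves 1 condition with 1 series. The cause of these changes was not tested. All 17 alternatives called nrg1 and rlp24, at -4.11 to -3.76 and 3.32 to 3.76. The change from 1 to 3 h gave 0 to 2 calls without single series. Without single series the single hours gave 2 to 11, 2 to 7 and 1 to 9 calls, and with all 32 arrays 8 at 1 h and 1 at 3 h. At 4 to 8 h there were 1553 calls with no block and 111 to 1383 without single series. The change from early to later hours gave 467 calls with no block and 285 to 864 without single series. With values as deposited it split into 439 higher and 569 lower, against 623 and 406 centred. Over 29 named genes and up to 17 alternatives, no difference past the threshold reversed, pan5 was lost in 4, and 6 genes were gained in at least 1. The number of arrays, in 4 series, limits the precision.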

Other observations

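Several genes not described above were also far from 0 by estimate. SPBC1348.12, on chromosome II, was named because the fit of all 32 arrays called it, which the fit of the 12 arrays did not. It lay at 0.06, 0.27 and 0.36 and at 1.26, 1.32 and 0.92 with P-factor, against 2.98, 3.08 and 3.01 and 1.89, 2.14 and 1.74 without it. All P-factor arrays were lower, but the repeats of each condition differed by about 1, and the difference was -1.77 ± 0.34 over all series and -0.76 between the adjoining ones. SPAC11D3.01C and SPAPB1A11.03 were chosen after their values were seen, and neither was called. SPAC11D3.01C lay at 1.83, 1.81 and 0.49 in P-factor replicate 1 and at 5.20, 6.63 and 3.90 in P-factor replicate 2, against 1.61, 0.58 and -0.86 and 1.99, 3.46 and 1.20 without P-factor. SPAPB1A11.03 was likewise high in P-factor replicate 2 alone, at 3.88, 4.16 and 3.79, where the other 9 arrays lay between -0.27 and 2.38.

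Of 3 metabolic genes described here, the groups overlapped in ura1 and atd1 but not in ght7. The gene ura1, whose product starts pyrimidine synthesis in fission yeast, lay at -2.44, -1.85 and -1.53 and at -2.55, -2.02 and -1.36 with P-factor, against -1.27, -1.33 and -1.13 and -1.46, -1.07 and -1.00 without it, a difference of -0.75 ± 0.24. The hexose transporter gene ght7 lay at 1.84 to 2.44 with P-factor and at -0.38 to 1.83 without it, a difference of 1.25 ± 0.43. The aldehyde dehydrogenase gene atd1 had a difference of -1.37 ± 0.38. Of 24 wtf genes, a family of spore killers, 2 had differences above 0, with a median of -0.238. Of 91 genes named for their rise in meiosis 63 did, with a median of 0.14, where 44.3% of all genes did.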
